A study of Mus musculus with 18 samples.

Results

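The comparison described here is the CD29 gate among CD24-low mouse mammary tumor cells: CD29H CD24L cells against CD29L CD24L cells of the same tumors. Its members are 6 of the 18 arrays of the series, chosen by the population and tumor number in their titles: 3 of CD29H CD24L cells and 3 of CD29L CD24L cells, 1 of each from tumors 1, 2 and 7. The study sorted dissociated tumors with antibodies to CD29 and CD24 into 4 populations, for transplantation and for RNA arrays. The other tumor arrays are 3 of CD29H CD24H and 3 of CD29L CD24H cells of the same tumors, and the rest of the series is 5 arrays of normal mammary cells and 1 reference RNA. Transplant generation 1 is given for tumors 1 and 2, and no generation for tumor 7. The labels give no genotype, strain, age or treatment for either population. Each array is sorted cells of 1 tumor, so n = 3 tumors, and the depletion of blood or stromal cells before the sort is not given in the labels. All arrays were deposited at one trimmed mean signal of 500 units, with medians between 71.6 and 104.2 units. Precision is set by the small number of arrays. In such bulk samples fewer cells of a type and less RNA per cell cannot be told apart.

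CD29 is the integrin beta1 chain, encoded by Itgb1, which pairs with many alpha chains to bind collagens, laminins and fibronectin and to link them to the actin cytoskeleton. CD24 is a small glycosylated surface protein, high on mammary epithelial cells and low on fibroblasts and many leukocytes. In the mammary gland, CD29 is used with CD24 to tell basal from luminal epithelial cells, and fibroblasts also carry it on their surface.

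Differences are given as CD29H CD24L minus CD29L CD24L on the log2(signal + 32) scale, on which dim genes show less than their full change, with standard errors and Benjamini-Hochberg adjusted p-values from limma with the tumor as a block. Of 10916 genes tested, 483 passed at an adjusted p under 0.05, which is 4.42%. Of these, 414 (3.79%) were higher in CD29H CD24L cells and 69 (0.632%) were lower. The sign agreed between the 3 tumors for all 483, and in 425 of them the arrays of the 2 populations did not overlap, against 14.2% of all genes tested (8.60% with the CD29H CD24L arrays above and 5.55% with them below). The 483 were chosen by a test on these same arrays, so both counts describe them and are no separate support. The median difference of all genes was −0.01, and 49.4% of all genes had positive differences. The counts of each gene list below are to be read beside these shares of all genes. The genes that passed higher were led by extracellular matrix and fibroblast genes, and those that passed lower by lymphocyte genes.

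The promoters of Itgb1, of 3 matrix genes that were higher and of 2 lymphocyte genes that were lower are shown for reference to the results; they were picked after the values were seen. Each is the 250 bases before the annotated start in RefSeq (build GRCm38.p6), 5′ to 3′ on the plus strand, for P2ry10 from the first of its listed starts. Capitals mark matches, on either strand, to the AP-1 motif TGANTCA, the TATA motif TATAAA, the CCAAT box CCAAT and the RUNX motif TGTGGT. The intervals are chr8:128685404-128685653 for Itgb1, chr1:164796413-164796662 for Dpt, chr11:28852955-28853204 for Efemp1, chr13:49607765-49608014 for Ogn, chrX:107088242-107088491 for P2ry10 and chr19:11443308-11443557 for Ms4a4b.
Itgb1: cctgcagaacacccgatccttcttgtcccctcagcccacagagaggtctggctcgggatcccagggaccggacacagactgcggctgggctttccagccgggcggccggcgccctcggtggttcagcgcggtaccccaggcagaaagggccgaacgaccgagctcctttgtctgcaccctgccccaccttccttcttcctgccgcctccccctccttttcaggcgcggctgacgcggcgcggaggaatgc
Dpt: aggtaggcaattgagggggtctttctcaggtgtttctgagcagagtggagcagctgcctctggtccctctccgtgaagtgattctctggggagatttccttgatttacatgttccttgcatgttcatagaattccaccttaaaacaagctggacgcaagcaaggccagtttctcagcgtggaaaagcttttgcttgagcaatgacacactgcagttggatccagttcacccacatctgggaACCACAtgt
Efemp1: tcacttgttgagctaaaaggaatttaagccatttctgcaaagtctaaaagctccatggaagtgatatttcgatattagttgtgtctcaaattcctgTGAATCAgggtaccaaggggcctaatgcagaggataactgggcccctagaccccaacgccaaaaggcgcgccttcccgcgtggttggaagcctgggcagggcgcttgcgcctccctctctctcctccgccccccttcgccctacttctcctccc
Ogn: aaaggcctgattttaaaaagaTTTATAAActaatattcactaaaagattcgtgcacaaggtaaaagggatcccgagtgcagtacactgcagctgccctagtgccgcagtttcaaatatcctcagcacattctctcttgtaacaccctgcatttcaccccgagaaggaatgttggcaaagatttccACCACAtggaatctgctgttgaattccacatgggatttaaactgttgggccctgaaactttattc
P2ry10: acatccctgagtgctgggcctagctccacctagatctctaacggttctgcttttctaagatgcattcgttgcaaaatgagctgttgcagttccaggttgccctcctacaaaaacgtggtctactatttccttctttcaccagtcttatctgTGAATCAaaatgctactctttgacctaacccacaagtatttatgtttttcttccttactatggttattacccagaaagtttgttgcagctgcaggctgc
Ms4a4b: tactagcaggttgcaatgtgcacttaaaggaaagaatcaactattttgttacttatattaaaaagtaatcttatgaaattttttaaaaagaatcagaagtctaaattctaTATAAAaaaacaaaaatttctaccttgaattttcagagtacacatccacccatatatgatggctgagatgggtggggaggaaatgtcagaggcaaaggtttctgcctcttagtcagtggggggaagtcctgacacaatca
The match in Efemp1 is to the AP-1 motif, from 154 to 148 bases before the start, and that in P2ry10 to the same motif, from 99 to 93 bases before it. Ogn has 2 overlapping TATA matches, one on each strand, and Dpt and Ogn each a RUNX match. Ms4a4b has a TATA match 140 to 135 bases before its start. The window of Itgb1 holds none of the 4 motifs. Among 291 of the genes that were higher, 7.56% had an AP-1 match and 15.1% a TATA match. Among 55 of the genes that were lower, the shares were much the same, 7.27% and 16.4%. They were 4.37% and 6.73% of the 8839 tested genes with a promoter and 6.87% and 13% of all 27025 promoters. A RUNX match was found for 13.4% of the higher and 23.6% of the lower genes (13 promoters), against 10.6% of the tested genes and 14.2% of all promoters. For the CCAAT box the shares were 30.2% and 27.3%, against 36.1% and 34.5%. These shares were not tested, and a match is a description and not a binding site.

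Transcript of the gene behind the gate was compared first. In the order tumor 1, 2, 7, which is kept for all values below, Itgb1 signal was 3152, 5659.9 and 5620.3 units in CD29H CD24L cells, against 1118, 458 and 2064 units in CD29L CD24L cells. The 3 CD29-high arrays lay above the 3 CD29-low arrays, with a difference of 2.15 ± 0.51 (adjusted p = 0.023). Of its 3 probe sets, those with differences of 2.15 and 2.17 passed and the dimmest, at 1.81, did not (adjusted p = 0.0741). Itgb1 missed the threshold with no block (adjusted p = 0.461), with the mean of its probe sets (0.0885) or without tumor 2 (1.45, adjusted p = 0.253); the other settings that ended the call left out 1 array. Cd24a, the gene of the shared gate, had 34167, 27126 and 41276 units in CD29H CD24L cells, against 43384, 18257 and 41916 units in CD29L CD24L cells. Its arrays overlapped and its difference was 0.07 ± 0.27 (adjusted p = 0.934). Of the 3 Cd24a probe sets only this one was positive, and the lowest was at −0.49. Both populations carry the CD24-low label, yet on the 6 CD24-high tumor arrays Cd24a spanned 33643 to 49678 units, a range that takes in 4 of these 6 arrays. Only 845 units were read on the single normal CD24-low array.

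**Figure D1:**
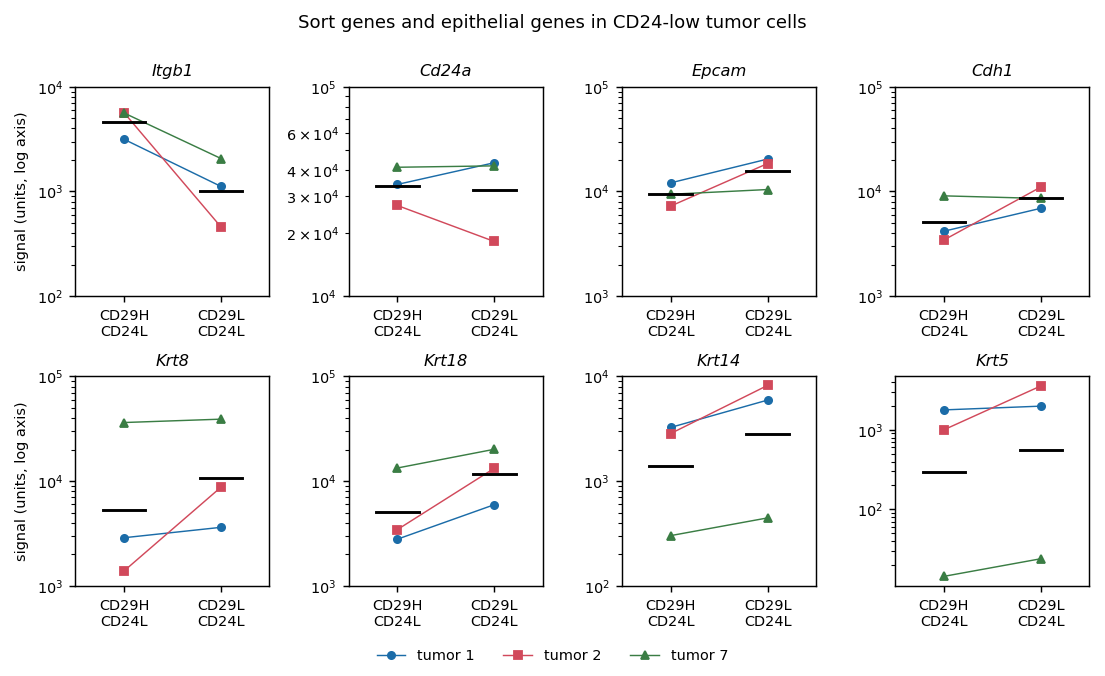
Signal of the 2 sort genes and of 6 epithelial genes on the 6 CD24-low tumor arrays (log axis, signal units), CD29H CD24L at the left and CD29L CD24L at the right. Lines join arrays of one tumor and bars are geometric means of 3; Itgb1 is higher at the left in each tumor, Cd24a is not, and Krt18 is lower at the left in each tumor.

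Both populations carried epithelial transcripts, and most of their differences were negative. Of 30 genes of epithelial junctions and identity tested, 27 had negative differences, with a median of −0.64, and 0 passed as higher and 2 as lower. Of all genes tested, 49.4% had positive differences and 0.632% passed as lower. Spint1, a membrane inhibitor of matriptase and hepsin that keeps epithelia intact, had 692, 529 and 1121 units in CD29H CD24L cells, against 2350.2, 2555 and 1412 units in CD29L CD24L cells. The arrays did not overlap (−1.42 ± 0.37, adjusted p = 0.044). Ovol1, a transcription factor that holds cells in the epithelial state, was lower as well (−1.62 ± 0.39, adjusted p = 0.025), though the CD29H CD24L array of tumor 1 stood above the CD29L CD24L array of tumor 7. Epcam, the epithelial adhesion molecule, had 12088, 7253 and 9408 units in CD29H CD24L cells and 20400.0, 18494 and 10442 units in CD29L CD24L cells, and Cdh1, E-cadherin, differed by −0.77 ± 0.34 (adjusted p = 0.244). Neither passed (Epcam −0.75 ± 0.31, adjusted p = 0.221), and Epcam was in no CD29H CD24L array near the 100.2 units of the normal CD24-low array. Without tumor 2, 0 of the 30 passed as lower, with a median of −0.54.

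Keratin levels differed widely between the tumors. Krt18, a keratin of luminal cells, had 2789.5, 3443 and 13344 units in CD29H CD24L cells, against 5959.8, 13260.0 and 20141 units in CD29L CD24L cells, lower in each tumor while the groups overlapped (−1.20 ± 0.30, adjusted p = 0.0348). Krt8, its partner, was lower in each tumor too but did not pass (−1.02 ± 0.47, adjusted p = 0.272). Of 18 luminal genes tested 15 were negative, with a median of −0.75. Esr1, the oestrogen receptor alpha, was the single luminal gene that passed as higher: 877, 716 and 445 units in CD29H CD24L cells against 134, 50 and 34.7 units in CD29L CD24L cells (2.83 ± 0.36, adjusted p = 0.000512). Its groups did not overlap. The normal CD24-low array read 5088 units, the normal CD29P CD24H arrays 13173 and 9273 units and the normal CD29H CD24P arrays 518 and 390 units. Among 11 basal genes, Krt17 fell (−1.38 ± 0.37, adjusted p = 0.0447) in tumors 1 and 2 by more than in tumor 7, where it stood at 70.8 units in CD29H CD24L and 78.4 units in CD29L CD24L cells. Krt14, the keratin of myoepithelial cells, had 3255, 2845 and 302 units in CD29H CD24L cells and 5941, 8204 and 446 units in CD29L CD24L cells, with a difference that missed the threshold (−0.97 ± 0.27, adjusted p = 0.0562). Trp63, the basal regulator p63, did not differ beyond its error (0.11 ± 0.34, adjusted p = 0.914). Krt18, Krt17 and Spint1 did not pass without tumor 2 (adjusted p = 0.434, 0.46 and 0.421) or with the actin ratio described below as a covariate (0.0683, 0.0907 and 0.0894).

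Genes of the proteins that coat and connect collagen fibrils were higher in the CD29H CD24L cells. Of 35 proteoglycan and matrix glycoprotein genes tested, 26 rose and 0 fell, all 35 had positive differences, and their median was 2.27. Before any filter, 30 of the 37 on the array had all 3 CD29H CD24L arrays above all 3 CD29L CD24L arrays, against 7.56% of the 18193 genes on the array. Dpt, dermatopontin, which binds decorin and collagen, had 9122, 31397 and 20363 units in CD29H CD24L cells, against 804, 332 and 2968 units in CD29L CD24L cells. It was the largest positive difference of all genes (4.22 ± 0.77, adjusted p = 0.0044), with every CD29-high array above every CD29-low array. Efemp1, fibulin-3, of the elastic fibre family, showed 11399, 20590.0 and 13130.0 units in CD29H CD24L cells and 706, 317 and 2679 units in CD29L CD24L cells (4.04 ± 0.73, adjusted p = 0.0041). Ogn, osteoglycin, a small leucine-rich proteoglycan, had 2713, 16105 and 4816 units in CD29H CD24L cells and 180.3, 407 and 846 units in CD29L CD24L cells (3.79 ± 0.62, adjusted p = 0.0021). For both genes the lowest CD29H CD24L array was above the highest CD29L CD24L array. Thbs3, thrombospondin-3, rose by 3.73 ± 0.42 (adjusted p = 0.00024). The proteoglycans Dcn (2.83 ± 0.63, adjusted p = 0.0162), decorin, and Lum (3.03 ± 0.55, adjusted p = 0.0045), lumican, which space collagen fibrils, rose with them. Without tumor 2, 15 of 33 genes of the list passed as higher and 0 as lower, with a median of 2.08. Dpt and Ogn missed the threshold without the block (adjusted p = 0.0558 and 0.0815), as did Dcn without the block or without tumor 2 (0.143 and 0.0893).

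Tnxb, tenascin-X, which ties collagen fibrils together, was close to background in 2 of the CD29L CD24L samples: it had 906, 1221 and 2108 units in CD29H CD24L cells, against 5.95, 19.9 and 259.8 units in CD29L CD24L cells (4.03 ± 0.70, adjusted p = 0.0033). The matrix glycoproteins Srpx2 and Cthrc1, the second a secreted protein of injured and tumor stroma, rose by 3.48 ± 0.54 (adjusted p = 0.0016) and 3.59 ± 0.39 (adjusted p = 0.00024). Cthrc1 was even across the CD29H CD24L cells of the 3 tumors, at 5824, 8806 and 8494 units, against 316, 768 and 883 units in CD29L CD24L cells.

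Collagen genes and the enzymes that finish collagen rose together. Of 16 fibrillar and fibril-associated collagen genes tested, 11 rose and 0 fell; all 16 differences were positive, with a median of 2.50. Col5a3, a chain of collagen V that helps set fibril width, had 9682, 13241 and 8591 units in CD29H CD24L cells, against 1041, 886 and 1262 units in CD29L CD24L cells, without overlap (3.26 ± 0.45, adjusted p = 0.000941). Col14a1 and Col12a1, collagens that coat fibrils, rose by 3.08 ± 0.51 (adjusted p = 0.0022) and 3.05 ± 0.32 (adjusted p = 0.00024), and the collagen VI chain Col6a3 by 2.91 ± 0.44 (adjusted p = 0.0015). Col1a1, of collagen I, had 16757, 30839 and 4753 units in CD29H CD24L cells and 2867, 1826 and 2659.9 units in CD29L CD24L cells, and here tumor 7 showed the smallest gap (2.47 ± 0.55, adjusted p = 0.0154). Col3a1 did not overlap between the groups either but missed the threshold (1.40 ± 0.50, adjusted p = 0.146), with 58610.0, 55392 and 51367 units in CD29H CD24L cells and 18064, 15778 and 32037 units in CD29L CD24L cells. A second, dimmer Col3a1 probe set differed by 3.35 and passed (adjusted p = 0.0069). Without tumor 2, 7 of the 16 genes passed as higher and 0 as lower. Col1a1 was not among them (adjusted p = 0.102), nor did it pass without the block (0.27).

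Of 22 genes of collagen folding, processing, crosslinking and uptake tested, 14 rose and 0 fell (median 1.76; 7 rose without tumor 2). Serpinh1, the collagen chaperone HSP47, had 17310.0, 14706 and 11497 units in CD29H CD24L cells, against 1448, 1597 and 3271 units in CD29L CD24L cells (2.84 ± 0.40, adjusted p = 0.001). Lox, lysyl oxidase, which crosslinks collagen and elastin, had 19837, 19262 and 21020.0 units in CD29H CD24L cells and 2598, 2793 and 3434 units in CD29L CD24L cells (2.76 ± 0.53, adjusted p = 0.0062). Neither overlapped between the groups. Pcolce, which enhances procollagen cleavage, rose by 2.73 ± 0.52 (adjusted p = 0.0059). Mrc2, the endocytic collagen receptor Endo180, had 2836, 4419 and 1938 units in CD29H CD24L cells, against 201, 183 and 288 units in CD29L CD24L cells (3.54 ± 0.35, adjusted p = 0.000232), and passed under each of the 27 alternatives.

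**Figure D2:**
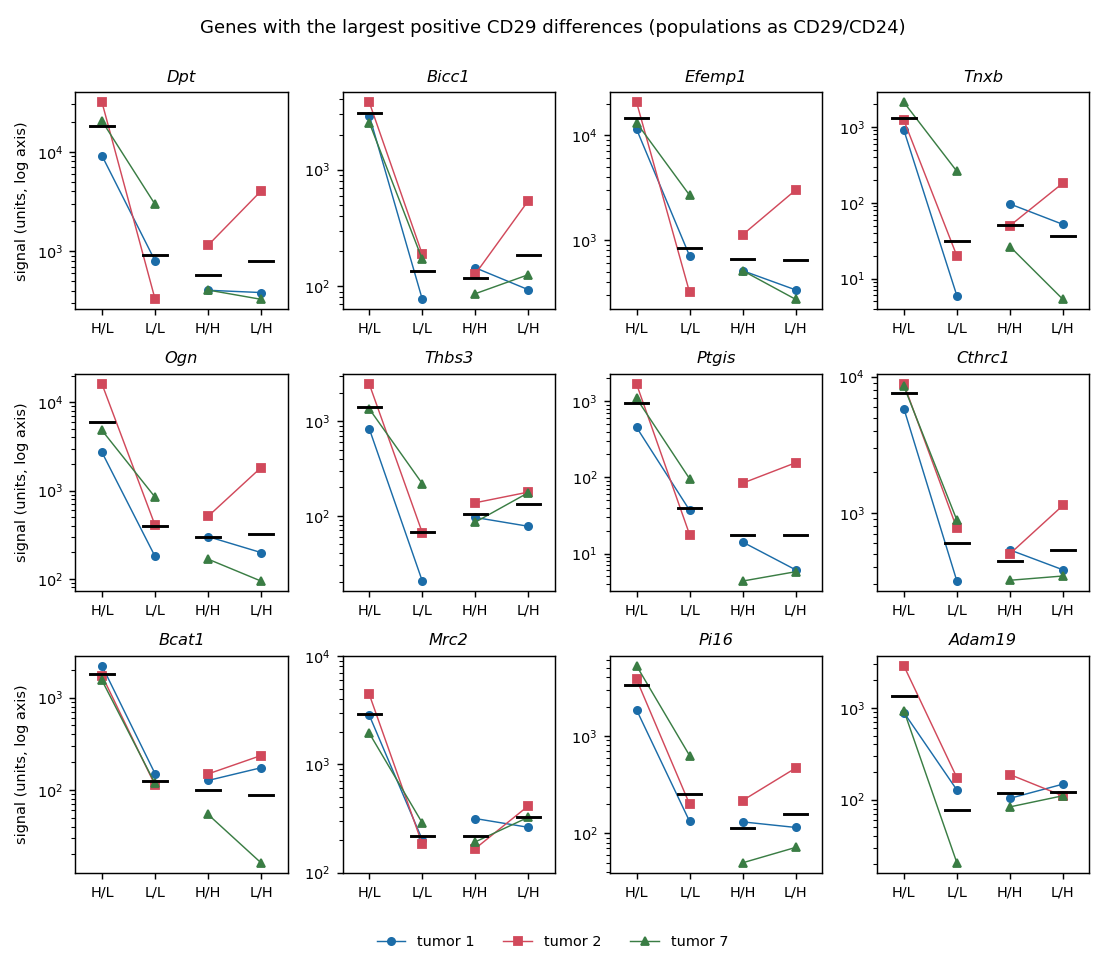
Signal (log axis, signal units) of the 12 genes with the largest positive differences on the 12 tumor arrays, populations written as CD29/CD24: CD29H CD24L (H/L), CD29L CD24L (L/L), CD29H CD24H (H/H) and CD29L CD24H (L/H). Lines join arrays of one tumor and bars are geometric means of 3; in each panel the 3 H/L arrays stand above the 3 L/L arrays, and the CD24-high arrays stand below H/L.

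Genes that remodel matrix passed as higher more often than genes of the basement membrane. Of 21 proteases and inhibitors tested, 11 rose and 0 fell (median 1.66). Mmp2 (gelatinase A) had 21292, 27535 and 20829 units in CD29H CD24L cells, against 3979, 2555 and 3141 units in CD29L CD24L cells (2.85 ± 0.35, adjusted p = 0.000462). Mmp3 (stromelysin-1) had 5906, 10869 and 10450.0 units in CD29H CD24L cells and 684, 1123 and 1849 units in CD29L CD24L cells (2.92 ± 0.42, adjusted p = 0.0011). Both showed the same order in each tumor with no overlap. The membrane protease Adam19 rose by 3.52 ± 0.41 (adjusted p = 0.000288) and Adamts12, which cleaves cartilage oligomeric matrix protein, by 2.90 ± 0.45 (adjusted p = 0.0017). Of 16 basement membrane genes 4 rose and 0 fell, with a median of 0.47 (1 rose without tumor 2). These were Nid1, nidogen-1, which joins laminin to collagen IV (3.15 ± 0.39, adjusted p = 0.000437), and the laminin chains Lama2 (2.15 ± 0.43, adjusted p = 0.0082), Lama4 (1.38 ± 0.35, adjusted p = 0.0357) and Lamc1 (1.31 ± 0.32, adjusted p = 0.029). Lama3 and Lamb3, laminin chains of epithelium, had differences of −0.56 and −0.62 and did not pass.

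Fibroblast and pericyte markers moved in the same direction: 12 of 18 tested rose, 0 fell, and the median was 2.25. Pdgfra, the PDGF receptor of fibroblasts, had 1972, 3702 and 2289 units in CD29H CD24L cells, against 342, 569 and 477 units in CD29L CD24L cells (2.42 ± 0.34, adjusted p = 0.001). Fap, fibroblast activation protein, had 3795, 6176 and 3225 units in CD29H CD24L cells and 371, 326 and 769 units in CD29L CD24L cells (3.13 ± 0.46, adjusted p = 0.0012). The groups did not overlap for either gene. Thy1, a surface protein of fibroblasts that T cells also carry in the mouse, rose by 2.08 ± 0.39 (adjusted p = 0.0052), and Islr and Cd34 rose by 3.07 ± 0.54 (adjusted p = 0.0035) and 2.87 ± 0.51 (adjusted p = 0.0035). The pericyte genes Rgs5 and Cspg4 rose by 2.52 ± 0.34 (adjusted p = 0.000902) and 1.44 ± 0.31 (adjusted p = 0.0131), and the smooth muscle gene Acta2 did not pass (1.01 ± 0.62, adjusted p = 0.446). Of 11 contractile genes 1 passed, the myosin light chain kinase gene Mylk (2.07 ± 0.52, adjusted p = 0.0347). The summed signal of the 19 listed fibroblast and pericyte genes on the array spanned 120673 to 151906 units in CD29H CD24L cells, against 34210.4 to 55566 units in CD29L CD24L cells and 11099 to 79270.1 units in the CD24-high cells. The part of these cells in the matrix differences was not tested. Col1a1, Col3a1, Dcn and Lum stand in this list as well as in the matrix lists. Without tumor 2, 6 of the 18 passed as higher. On the normal CD24-low array Fap read 15706 units and the matrix gene Dpt 37641 units, but Cspg4 257 and Rgs5 1601 units, below the CD29H CD24L arrays.

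Among 15 regulators and markers of the mesenchymal state, 8 rose and 0 fell (median 1.23). Axl, a receptor tyrosine kinase of mesenchymal cells, had 1146, 3081 and 1589.8 units in CD29H CD24L cells, against 430.2, 117 and 134 units in CD29L CD24L cells (3.01 ± 0.51, adjusted p = 0.0026). Prrx1, a homeobox factor of mesenchyme, rose by 2.86 ± 0.47 (adjusted p = 0.0021). The cadherins Cdh11 and Cdh2, which replace E-cadherin in mesenchymal cells, rose by 2.79 ± 0.58 (adjusted p = 0.0101) and 2.35 ± 0.49 (adjusted p = 0.0109). All 4 showed no overlap between the groups. Snai2, a repressor of E-cadherin, had 17387, 9607 and 2049 units in CD29H CD24L cells and 10789, 5947 and 385 units in CD29L CD24L cells and did not pass. Without tumor 2, 0 of the 15 passed in either direction, with a median of 1.5.

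**Figure D3:**
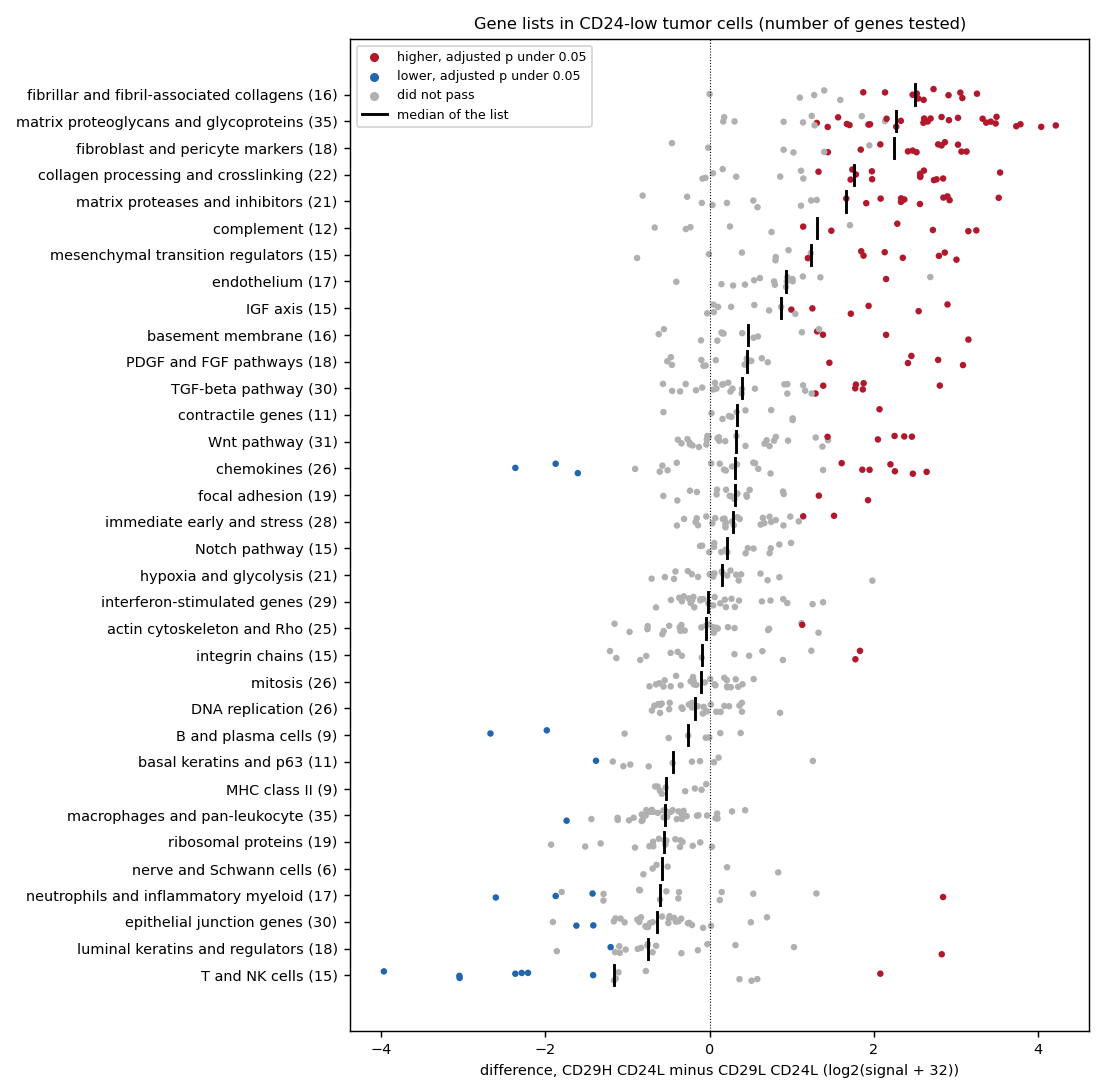
Differences of the tested members of each gene list with at least 6 tested genes, CD29H CD24L minus CD29L CD24L on the log2(signal + 32) scale; one point per gene, coloured by whether it passed, with the list median as a bar. Lists are ordered by median, and those at the top, the collagen network, fibroblast, protease and complement lists, hold most of the genes that rose, while the T and NK list is at the bottom.

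Other integrin chains mostly did not follow Itgb1. Of 15 integrin genes tested 2 rose, 0 fell and the median was −0.10. Itga1, the collagen-binding partner of beta1, had 1089, 798 and 483 units in CD29H CD24L cells, against 174, 221 and 172 units in CD29L CD24L cells (1.83 ± 0.31, adjusted p = 0.003). Itgb3, the beta3 chain of the vitronectin receptor, rose by 1.78 ± 0.47 (adjusted p = 0.0462) and missed the threshold without the block and without tumor 2 (adjusted p = 0.362 and 0.19). Itga6, the laminin-binding chain used to mark basal mammary cells, had 4362, 4192 and 8841 units in CD29H CD24L cells and 5136, 4364 and 8811 units in CD29L CD24L cells, which overlapped. Of 19 focal adhesion genes 2 rose, the tensin gene Tns1 (1.93 ± 0.39, adjusted p = 0.0093) and the kindlin-2 gene Fermt2 (1.33 ± 0.27, adjusted p = 0.0082). One of the 3 Fermt2 probe sets had the opposite sign, and neither gene passed without tumor 2. The actin cytoskeleton list had 1 gene that rose, Msn, moesin (1.13 ± 0.29, adjusted p = 0.0361), of 25 tested.

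Secreted signals and their carriers rose in several pathways. In the TGF-beta list 7 of 30 rose and 0 fell; 24 differences were positive (median 0.39), against 49.4% of all genes tested, and 1 of the 30 passed without tumor 2. The ligand Tgfb2 had 7931, 8941 and 5464 units in CD29H CD24L cells, against 2410.1, 1792 and 1786 units in CD29L CD24L cells (1.87 ± 0.30, adjusted p = 0.002). The coreceptor Tgfbr3, betaglycan, rose by 1.88 ± 0.37 (adjusted p = 0.008), and Fstl1, a secreted binder of this ligand family, by 2.80 ± 0.54 (adjusted p = 0.0061). Fstl1 was bright throughout, at 33093, 39657 and 41731 units in CD29H CD24L cells and 5538, 3692 and 7744 units in CD29L CD24L cells. In the IGF list 6 of 15 rose and 0 fell; 14 were positive (median 0.87), and 2 passed without tumor 2. The growth factor Igf1 had 3293, 6557 and 2988 units in CD29H CD24L cells, against 318, 639 and 649 units in CD29L CD24L cells (2.90 ± 0.45, adjusted p = 0.0017). The binding proteins Igfbp7 and Igfbp3 and the protease Htra1, which cleaves such proteins, rose by 1.94 ± 0.34 (adjusted p = 0.0032), 1.72 ± 0.38 (adjusted p = 0.0139) and 2.55 ± 0.59 (adjusted p = 0.0206).

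In the PDGF and FGF list 5 of 18 rose and 0 fell (median 0.45): receptors Pdgfra and Pdgfrb (2.78 ± 0.47, adjusted p = 0.0026), the ligands Pdgfd (3.09 ± 0.48, adjusted p = 0.0016) and Fgf7 (2.46 ± 0.41, adjusted p = 0.0025), and Csf1. Fgf7, keratinocyte growth factor, is made by stroma and acts on epithelium; it had 2412, 3986 and 1733 units in CD29H CD24L cells, against 499.5, 237 and 699 units in CD29L CD24L cells. In the Wnt list 5 of 31 rose and 0 fell (20 positive, median 0.33; 1 of 29 rose without tumor 2), most of them secreted modulators rather than ligands. They were the target gene Ccn4 (2.46 ± 0.36, adjusted p = 0.0012), Dkk2 (2.37 ± 0.44, adjusted p = 0.0051), the decoy receptors Sfrp4 (2.25 ± 0.48, adjusted p = 0.0111) and Sfrp2 (2.05 ± 0.56, adjusted p = 0.0498), and Dkk3. Sfrp2 missed the threshold under most alternatives and passed under 7 of 27 alternatives. The Notch list had 0 of 15 past the threshold, although 12 were positive.

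Chemokine genes passed in both directions: 7 of 26 rose and 3 fell, with a median of 0.30, and without tumor 2, 5 of 23 rose and 0 fell. Ccl11, eotaxin, which draws eosinophils, had 396, 746 and 450.1 units in CD29H CD24L cells, against 43.1, 121 and 25.3 units in CD29L CD24L cells (2.64 ± 0.37, adjusted p = 0.000978). Cxcl5, a neutrophil attractant, and Cxcl12, a stromal chemokine that acts through CXCR4, rose by 2.48 ± 0.44 (adjusted p = 0.0035) and 2.26 ± 0.33 (adjusted p = 0.0012). Those that fell were Ccl5, Ccl3 and Ccl20. The cytokine Il6 had 15176, 26625 and 13630.0 units in CD29H CD24L cells, against 3576, 2207 and 1823 units in CD29L CD24L cells (2.84 ± 0.52, adjusted p = 0.0047), with every CD29-high array several times brighter than its partner. Of 12 complement genes 6 rose and 0 fell (median 1.31; 3 rose without tumor 2). C2, whose product is part of the classical C3 convertase, had 3067, 6131 and 3229.5 units in CD29H CD24L cells, against 246, 394 and 581 units in CD29L CD24L cells (3.25 ± 0.36, adjusted p = 0.00024). The protease gene C1s1 rose by 3.15 ± 0.54 (adjusted p = 0.003), factor B, Cfb, by 2.29 ± 0.32 (adjusted p = 0.000978) and the C1 inhibitor gene Serping1 by 2.72 ± 0.48 (adjusted p = 0.0033).

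T-cell genes led the genes that were lower in the CD29H CD24L cells. Of the 46 listed T and NK genes on the array only 15 had a mean over the 12 tumor arrays bright enough to be tested. Some of them, such as P2ry10, Ms4a4b and Gzmb, were bright in the CD29L CD24L arrays alone and entered through these. Of the 15, 7 fell, 1 rose (Thy1, above), and the median was −1.16. These values follow in part from the filter and are a description. Before the filter, 19 of the 46 had all 3 CD29H CD24L arrays below all 3 CD29L CD24L arrays and 3 had them above, against 5.62% and 7.56% of the 18193 genes. Icos, a costimulator of activated T cells, had 234, 117 and 97.1 units in CD29H CD24L cells, against 5697, 927 and 3525 units in CD29L CD24L cells. It was the largest negative difference of all genes (−3.97 ± 0.53, adjusted p = 0.000707), and its lowest CD29L CD24L array, that of tumor 2, was still above every CD29H CD24L array. P2ry10, a lymphocyte receptor for lysophospholipids, had 58.6, 47.4 and 60 units in CD29H CD24L cells and 937, 429 and 803 units in CD29L CD24L cells (−3.05 ± 0.42, adjusted p = 0.000902). Ms4a4b, a T-cell membrane protein of the CD20 family, had 83.8, 75.3 and 96.5 units in CD29H CD24L cells and 1314, 369 and 1625 units in CD29L CD24L cells (−3.04 ± 0.49, adjusted p = 0.002). Both genes were near background in the CD29-high cells of each tumor. These 3 genes passed under each alternative in which they were tested (26 for Icos, 23 for P2ry10 and 24 for Ms4a4b).

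Of the 3 genes of cytotoxic granules tested, 1 fell. Gzmb, the granule protease granzyme B, had 89.7, 86.8 and 49.5 units in CD29H CD24L cells, against 727, 331 and 466 units in CD29L CD24L cells (−2.29 ± 0.48, adjusted p = 0.0107). Gzma, granzyme A, and Prf1, perforin, did not pass (−1.11 ± 0.46, adjusted p = 0.214, and 0.51 ± 0.35, adjusted p = 0.496). Ccl5, a chemokine of effector T and NK cells, had 112, 188 and 456 units in CD29H CD24L cells, against 1224, 2315 and 686 units in CD29L CD24L cells (−2.37 ± 0.51, adjusted p = 0.0121). The gap was smallest in tumor 7, and Ccl5 did not pass without tumor 2 (−1.84, adjusted p = 0.208). Il18r1, a receptor chain for interleukin-18, fell by 2.30 ± 0.42 on the log2 scale. Of the 3 defining T-cell genes, all left out by the filter and not tested, Cd3g had 36.3, 3.78 and 5.72 units in CD29H CD24L cells, against 330.2, 127 and 364 units in CD29L CD24L cells. Cd3d had 3.77, 7.31 and 26.1 units in CD29H CD24L cells and 117, 61.7 and 59.7 units in CD29L CD24L cells. The groups did not overlap for these 2 genes. Cd3e had 57.7, 121 and 141 units in CD29H CD24L cells and 606, 64.7 and 273 units in CD29L CD24L cells, which overlapped, with the opposite order in tumor 2. Klrd1, a receptor chain of NK cells and some T cells, had 88.3, 32.3 and 122 units in CD29H CD24L cells, against 430, 120 and 493 units in CD29L CD24L cells, lower in each tumor with overlapping groups, and was also below the filter. Ncr1, the other NK marker, was at most 30.4 units in CD29H CD24L cells and 24.6 units in CD29L CD24L cells. The summed signal of the 46 genes spanned 7939 to 10231 units in CD29H CD24L cells, against 11683 to 24571 units in CD29L CD24L cells and 2606 to 6406 units in the CD24-high cells. Thy1, which is among the 46 and rose, made up 3997, 5150 and 3666 units of these sums in CD29H CD24L cells. It made up 1060, 664 and 1314 units in CD29L CD24L cells and 173 to 937 units in the CD24-high cells.

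**Figure D4:**
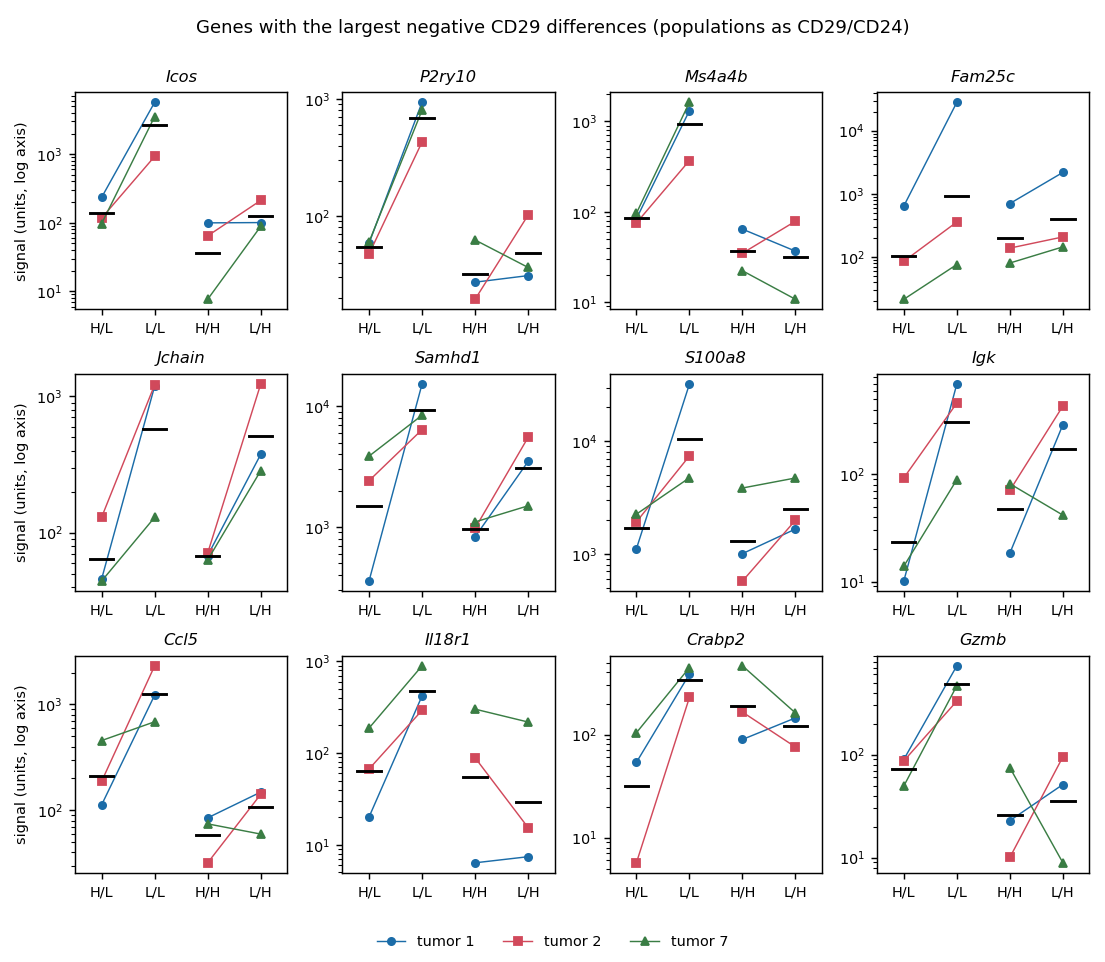
Signal (log axis, signal units) of the 12 genes with the largest negative differences on the 12 tumor arrays, populations written as CD29/CD24 as in the plot of the largest positive differences. Lines join arrays of one tumor and bars are geometric means of 3; Icos, P2ry10, Ms4a4b and Gzmb are high in the L/L arrays alone, whereas Jchain and Igk are high in both CD29-low populations of tumors 1 and 2 and not in all arrays of those populations in tumor 7.

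Among other leukocyte genes few passed. Ptprc, the pan-leukocyte antigen CD45, had 625, 1791 and 522 units in CD29H CD24L cells, against 2982, 2428 and 3316 units in CD29L CD24L cells (−1.74 ± 0.45, adjusted p = 0.039). It was the only one of 35 macrophage and pan-leukocyte genes to pass, 30 of which were negative with a median of −0.54. The macrophage receptor Csf1r did not differ beyond its error, with 6353, 16957 and 3599 units in CD29H CD24L cells and 4499, 16835 and 4181 units in CD29L CD24L cells (0.10 ± 0.32, adjusted p = 0.919), and neither Adgre1 nor Cd68 passed. Of 17 neutrophil and inflammatory genes 3 fell and 1, Il6, rose. S100a8, a calcium-binding protein of neutrophils, had 1112, 1926 and 2256 units in CD29H CD24L cells, against 32249, 7422 and 4746 units in CD29L CD24L cells (−2.60 ± 0.65, adjusted p = 0.0337). The neutrophil marker S100a9 did not pass (−1.80 ± 0.49, adjusted p = 0.0519), with differences of −3.06, −2.56 and 0.22 in the 3 tumors. Csf3r, another such marker, was below the filter. It had 15.7, 30.6 and 44.9 units in CD29H CD24L cells and 40.9, 194 and 47.5 units in CD29L CD24L cells. Il1b and Ccl3 fell by 1.43 ± 0.36 and 1.87 ± 0.43 on the log2 scale, most in tumor 2. S100a8, Il1b and Ccl3 did not pass without tumor 2. All 9 class II genes tested were negative (median −0.53) and 0 passed, and of 29 interferon-stimulated genes 14 were positive and 0 passed. Of all genes tested 49.4% were positive.

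The antibody genes Jchain, Igha and Igk were lower in the CD29H CD24L cells of tumors 1 and 2 in particular. Of 9 B and plasma cell genes tested, 7 were negative, with a median of −0.26, and 2 fell and 0 rose. The B-cell marker Cd79a, below the filter, had 16.2, 90.6 and 122 units in CD29H CD24L cells. It had 48.7, 64.5 and 38.8 units in CD29L CD24L cells, the opposite order in tumors 2 and 7. Jchain, the joining chain of IgA and IgM, had 45.7, 129.7 and 44.1 units in CD29H CD24L cells, against 1187, 1215 and 129.5 units in CD29L CD24L cells (−2.67 ± 0.51, adjusted p = 0.0057). Igha, the IgA heavy chain, had 77.6, 226 and 128 units in CD29H CD24L cells and 745, 1502 and 202 units in CD29L CD24L cells (−1.98 ± 0.44, adjusted p = 0.0165). In both, tumor 7 had the smallest gap and the groups overlapped, and neither passed without the block (adjusted p = 0.138 and 0.196). Igk, the kappa light chain locus, differed by −2.50 ± 0.58 (adjusted p = 0.0212), and its groups overlapped too. On the normal CD29P CD24H arrays Jchain read 5537 and 9828 units, Igk 572 and 683 units and Igha 58.3 and 248 units. Beyond immune cells, the retinoic acid-binding protein gene Crabp2 fell by 2.30 ± 0.40 on the log2 scale, without overlap. Samhd1, a nucleotide hydrolase, differed by −2.61 ± 0.65 (adjusted p = 0.0328), but 1 of its 4 probe sets had the opposite sign and 1 passed. Fam25c differed by −2.71 ± 0.70 (adjusted p = 0.0399); its signal of 28104 units in the CD29L CD24L cells of tumor 1 was far above the other tumor arrays, while both normal CD29P CD24H arrays read 24946 and 25162 units, and it passed under 10 of 27 alternatives.

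Markers of further cell types were checked on the same arrays. Of 17 endothelial genes 16 were positive, with a median of 0.93, against 49.4% of all genes tested. Only 1 passed as higher, against 3.79% of all genes tested. This gene, Mmrn2, of an endothelial matrix protein, had 3555, 5077 and 524 units in CD29H CD24L cells, against 675, 422 and 331 units in CD29L CD24L cells (2.15 ± 0.49, adjusted p = 0.0191). The defining gene Pecam1 was at most 41.5 units in CD29H CD24L cells and 11.3 units in CD29L CD24L cells. Lpl, lipoprotein lipase, of adipocytes, fibroblasts and macrophages, had 18758, 30601 and 10540.0 units in CD29H CD24L cells and 3335, 1965 and 4324 units in CD29L CD24L cells (2.57 ± 0.51, adjusted p = 0.0082), and was 1 of the 2 adipocyte genes tested. Adipoq, which defines adipocytes, was at most 13.3 units in CD29H CD24L cells and 71.0 units in CD29L CD24L cells. The erythroid, Schwann cell and skeletal muscle lists had 0 genes past the threshold.

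No proliferation gene passed the threshold. Of 26 mitosis genes 0 passed, with 12 positive and a median of −0.11, and of 26 DNA replication genes 0 passed, with 9 positive and a median of −0.18. Of 28 immediate early and stress genes, which respond to dissociation, 2 rose: Fosb (1.52 ± 0.34, adjusted p = 0.0168) and Egr1 (1.14 ± 0.27, adjusted p = 0.0217), both transcription factors of the early response, of which neither passed without tumor 2. Egr1 had 40365, 43089 and 35380.0 units in CD29H CD24L cells, against 21319, 13132 and 20456 units in CD29L CD24L cells. Hypoxia and glycolysis genes had 0 of 21 past the threshold. A list of 19 tested ribosomal protein genes, which does not hold Rpl41, had 18 negative, a median of −0.55, and 0 past the threshold.

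Further genes with large positive differences lay outside the matrix lists. Bicc1, an RNA-binding protein, had 2913, 3783 and 2535 units in CD29H CD24L cells, against 77.1, 188 and 169.9 units in CD29L CD24L cells (4.18 ± 0.40, adjusted p = 0.000232). Ptgis, prostacyclin synthase, had 454, 1679 and 1088 units in CD29H CD24L cells and 37, 17.8 and 96 units in CD29L CD24L cells (3.68 ± 0.55, adjusted p = 0.0014). Bcat1, the cytosolic branched-chain aminotransferase, had 2215, 1738 and 1539 units in CD29H CD24L cells and 150.1, 113 and 117 units in CD29L CD24L cells (3.54 ± 0.41, adjusted p = 0.000288). None of these 3 overlapped between the groups, and all 3 passed without the block (adjusted p = 0.0126, 0.0273 and 0.0171). Pi16, a surface peptidase inhibitor of a fibroblast subset, rose by 3.53 ± 0.56 (adjusted p = 0.002).

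The CD29 difference was then set against that among CD24-high cells. There, CD29H CD24H against CD29L CD24H cells, 0 genes passed as higher and 1 as lower by limma (0.00916% of those tested; 889 at an unadjusted p under 0.05), and no array is shared between the 2 contrasts. The interaction, the CD29 difference among CD24-low cells minus that among CD24-high cells, passed for 211 genes (1.93%), 191 positive (1.75%) and 20 negative (0.183%). Of the 483 genes of the CD24-low contrast, 193 (40%) passed in the interaction as well. It was positive for 17 of the 35 proteoglycan and glycoprotein genes, 7 of 16 collagens, 9 of 22 collagen-processing genes, 10 of 21 proteases and 8 of 18 fibroblast and pericyte genes, and negative for 0 of each. The medians of these 5 lists among CD24-high cells lay between −0.30 and −0.13. Bicc1 had 144, 127 and 86.2 units in CD29H CD24H cells and 93.2, 541 and 125 units in CD29L CD24H cells, and its interaction was 4.77 ± 0.56 (adjusted p = 0.0022). Dpt had 406, 1147 and 408 units in CD29H CD24H cells and 385, 4034 and 329 units in CD29L CD24H cells (4.69 ± 1.09, adjusted p = 0.039). In tumor 2 the CD29L CD24H array was the highest of the CD24-high arrays for both genes. For Itgb1 itself the CD24-high arrays gave 1893, 534 and 4529 units in CD29H CD24H cells and 1049, 1489.7 and 8532 units in CD29L CD24H cells, and its interaction missed the threshold (2.65 ± 0.72, adjusted p = 0.0847).

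**Figure D5:**
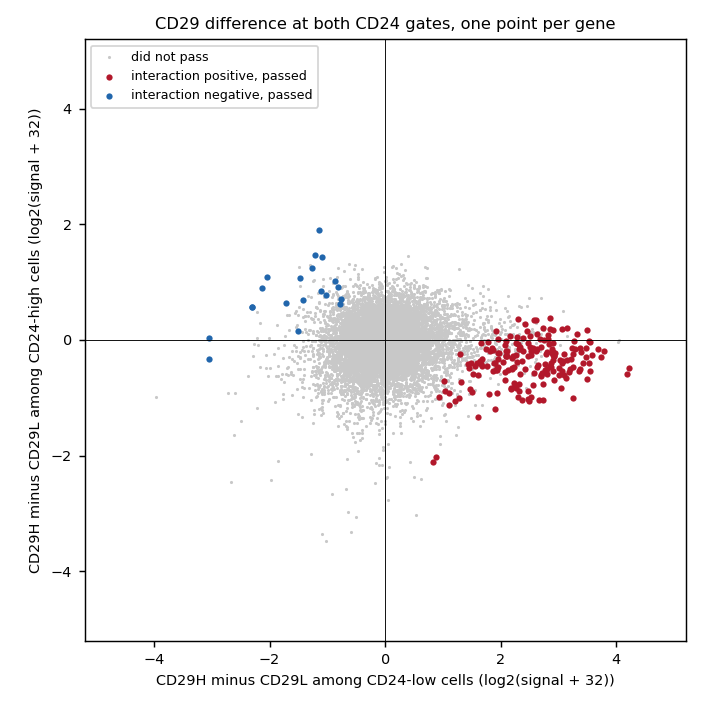
CD29 difference of each of the 10916 genes among CD24-low cells (x axis) and among CD24-high cells (y axis), both as CD29H minus CD29L on the log2(signal + 32) scale, with genes whose interaction passed in colour. The 191 genes with a positive interaction lie to the right, near or below 0 on the y axis.

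The lymphocyte genes Ms4a4b and P2ry10 and the interleukin-18 receptor gene Il18r1 had negative interactions, of −3.08 ± 0.70 (adjusted p = 0.0365), −2.71 ± 0.59 (adjusted p = 0.0295) and −2.88 ± 0.60 (adjusted p = 0.0247). In CD24-high cells Ms4a4b had 64.4, 34.9 and 22.3 units in CD29H CD24H cells and 36.7, 78.8 and 10.8 units in CD29L CD24H cells, near background in both. Il18r1 had 419, 292 and 894 units in CD29L CD24L cells, but 1185 and 1168.5 units on the normal CD29P CD24H arrays. These normal arrays read P2ry10 at 554 and 373 units and Ms4a4b at 61.1 and 37.7 units. Jchain and Igha had differences of −2.46 and −2.43 among CD24-high cells too, which did not pass there (adjusted p = 0.372 and 0.316), and their interactions did not pass either (0.947 and 0.838). Apoe, apolipoprotein E, had 985, 1705 and 764 units in CD29H CD24L cells and 1325, 11828 and 3014 units in CD29L CD24L cells, with the largest gap in tumor 2 (−2.35 ± 0.56, adjusted p = 0.0432 for the interaction). Of the 12 genes with the most negative interactions, 5 encode small subunits of the ribosome, the ATP synthase or RNA polymerase: Rpl41, Atp5l, Atp5e, Mrps33 and Polr2f. Rpl41 had 1718, 1131 and 3748 units in CD29H CD24L cells and 4426, 20331 and 7012 units in CD29L CD24L cells, against 2540.4, 5660.3 and 4063 units in CD29H CD24H cells and 2203, 3468 and 1129.5 units in CD29L CD24H cells. Its brightest CD24-low array, CD29L CD24L of tumor 2, and its brightest CD24-high array, CD29H CD24H of tumor 2, were also those with the lowest ratio of actin 3′ to 5′ signal, 14.4 and 23.2, against 49.6 to 99.3 on the other 10 tumor arrays. This ratio rises as RNA is shorter or less well copied, and with it as a covariate 426 genes passed in the CD24-low contrast and 131 in the interaction. Of the 102 genes that were named by the fixed rule described below and passed in the CD24-low contrast, 94 passed in that fit. Rpl41 passed there in the CD24-low contrast (−1.69 ± 0.42, adjusted p = 0.0323), and its interaction missed the threshold (−2.36 ± 0.60, adjusted p = 0.0732). The interactions of Atp5e, Mrps33, Polr2f and Apoe missed it too (adjusted p = 0.0633, 0.0662, 0.0795 and 0.0892), and that of Atp5l passed (−2.40 ± 0.50, adjusted p = 0.0342).

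These counts rest on the pairing by tumor and, in part, on tumor 2. Of the 102 genes that were named by the fixed rule and passed, 41 passed without the block and all 102 kept their sign. Without the tumor as a block, 124 genes passed in the CD24-low contrast (119 higher, 5 lower), and 0 in the interaction (646 at an unadjusted p under 0.05). Without tumor 2 the counts were 182 (157 higher, 25 lower) and 0 (923 unadjusted). In that setting the T and NK list still had 5 of 15 genes that passed as lower, with the limit by the filter given above. The protease list had 9 of 21 as higher.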

How the data were processed

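Sorted-cell RNA was amplified in a 2-cycle T7 procedure and read on one-colour Affymetrix arrays, per the labels' protocols. The authors deposited linear probe-set signal intensity, for which the submitters' processing notes name GCOS; the measured trimmed mean was 500 units on each array. Of 45101 probe sets, 34945 have 1 gene symbol in the platform annotation and only these were used. Each of 18193 genes was read from its brightest probe set over the 12 tumor arrays, values became log2(intensity + 32), and genes in the bottom 40% by mean were dropped.

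Groups came from the titles. Population means (4) and the tumor as a block were fitted with limma 3.58.1 under R 4.3.3, with a mean-dependent prior variance; every adjusted p is its Benjamini-Hochberg value, with a threshold of 0.05, and the procedure was tested on simulated data. Arrays of one number come from one tumor by their titles. Deviations from population means correlated at 0.389 to 0.728 within tumors and, between tumors, at −0.458 to −0.053 across populations and −0.669 to −0.249 within one. Taking out a mean of 3 arrays pulls the values between tumors below 0, so these do not bear on the pairing.

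The members and the gene lists were chosen with earlier results of these data known. Named genes are the sort genes, defining markers, the 12 largest differences per direction and contrast, and up to 4 genes that passed per list. Snai2, Itga6, Lama3, Lamb3, Csf1, Dkk3, Ccl20, Gzma and Prf1 were added after their values were seen. The 102 named genes that passed include neither these nor the imprinted genes given below, which were not followed singly under the alternatives. Promoters came from RefSeq, where 78 of 124 named genes had an entry. Alternatives varied the block, arrays, tumors, offset, scaling, filter, probe sets, trend and actin ratio. Figures were drawn with matplotlib 3.10.9.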

Additional observations from a re-analysis of the deposited data

Results flagged for a closer look

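The CD29 difference among CD24-low cells was unequal to that among CD24-high cells for 211 genes by limma's interaction term, the test of the difference itself. Values here are the first difference minus the second. On the positive side these were, in order, Bicc1 (4.77), Dpt (4.69), Col5a3 (4.26), Srpx2 (4.16), Mrc2 (4.07), Thbs3 (4.04), Ogn (3.98), Pi16 (3.92), Ptx3 (3.90), Itm2a (3.88), Tnfaip6 (3.87) and Cthrc1 (3.84). Ptx3 and Tnfaip6 encode secreted proteins of the hyaluronan-rich matrix made in inflammation. On the negative side they were Atp5l (−3.14), Ms4a4b (−3.08), Gm12338 (−3.05), Rpl41 (−3.03), Il18r1 (−2.88), Crabp2 (−2.86), P2ry10 (−2.71), Mrps33 (−2.68), Polr2f (−2.54), Etaa1 (−2.52), Atp5e (−2.51) and Apoe (−2.35). Gm12338, Mrps33, Polr2f, Etaa1 and Atp5e passed in the interaction and not in the CD24-low contrast. The count was 0 without the block and 0 without tumor 2, with 646 and 923 genes at an unadjusted p under 0.05.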

How the results depend on the processing

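The tumor numbers pair the arrays, and without that block the CD24-low count was 124 in place of 483 and the interaction count 0 in place of 211. The CD24-low count was 280 with 60% of genes left out and 741 probe sets with each by itself, where more or fewer features were tested. With 1 array left out it lay between 253 (CD29L CD24L, tumor 2) and 627 (CD29H CD24L, tumor 7), and was 254 and 298 without the CD29H CD24L arrays of tumors 2 and 1. It was 276 without tumor 1, 182 without tumor 2 and 507 without tumor 7. The 69 lower genes became 22 without the CD29H CD24L array of tumor 1 or that of tumor 2, and 162 without that of tumor 7. The interaction count was 87 with an offset of 1, 104 with no filter, 137 with 60% left out and 131 with the actin ratio. With 1 array left out it lay between 31 (CD29H CD24H, tumor 2) and 249 (CD29L CD24L, tumor 7), with 34, 63, 65, 83, 99 and 117 without the arrays CD29L CD24H of tumor 2, CD29H CD24H of tumor 7, CD29L CD24L of tumor 2, CD29H CD24L of tumors 2 and 1 and CD29L CD24H of tumor 1, and was 0 without tumor 2. The cause of these shifts was not tested.

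Of the 102 named genes that passed, none changed sign, and 50 of 98 passed without tumor 2. Only genes that had not passed changed sign. Cd24a was −0.158 with the mean of its probe sets, −0.118 with the actin ratio, −0.183 without tumor 2, and from −0.282 to 0.289 with 1 array left out. Csf1r was −0.084 with the mean of its probe sets, −0.102 without tumor 1 and from −0.053 to 0.287 with 1 array left out. Trp63 lay between −0.129 and 0.320 with 1 array left out, and Sox10 was 0.009 with the mean of its probe sets. Scaling moved the median of all genes to at most 0.089. Detection calls were not used here, so dim genes are not told apart from absent ones.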

Other observations

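Several imprinted genes were among the genes that passed as higher, a list put together after their values were seen and therefore given as a description. Of 14 imprinted genes tested, 4 rose and 0 fell, with a median of 0.67. Ndn, necdin, a growth suppressor of postmitotic cells, had 3976, 5791 and 2624 units in the CD29H CD24L cells (tumors 1, 2, 7), against 247, 265 and 517 units in CD29L CD24L cells (3.47 ± 0.55, adjusted p = 0.00173). The groups did not overlap. The noncoding RNAs Meg3 and Rian, transcribed from one imprinted cluster, rose by 2.69 ± 0.43 (adjusted p = 0.00196) and 3.18 ± 0.35 (adjusted p = 0.00024). Rian had 876, 1539 and 673 units in CD29H CD24L cells, against 126, 84.8 and 41.0 units in CD29L CD24L cells. Grb10, an adaptor that damps insulin and IGF receptor signals, rose by 2.66 ± 0.56 (adjusted p = 0.011). Igf2, another imprinted gene, did not pass (0.10 ± 0.45, adjusted p = 0.938). In normal CD24-low cells, with 1 array, Ndn was read at 19616 units and Meg3 at 14842 units.

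Subunits of ribosomes and of the respiratory chain, also listed after seeing values, were mostly negative with few past the threshold. Of 42 cytosolic ribosomal protein genes 38 were negative (median −0.54; 1 rose and 2 fell), of 70 mitochondrial ribosomal genes 58 (median −0.37; 0 passed), and of 68 respiratory chain and ATP synthase genes 56 (median −0.31; 0 rose and 2 fell), against a median of −0.01 over all genes. The actin 3′ to 5′ ratio was 56.8, 77.0 and 63.3 in CD29H CD24L cells and 99.3, 14.4 and 63.9 in CD29L CD24L cells, and with it as a covariate the 3 medians were −0.41, −0.25 and −0.28. Without tumor 2 they were −0.32, −0.21 and −0.26, and 0 genes of the 3 lists passed as lower.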
